A study of Mus musculus with 6 samples.

Results

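The 9 genes named Marco, Msr1, Mrc1, Cd68, Itgax, Adgre1, Cd163, Csf1r and Pparg, all well-known genes of macrophages, were followed through the lungs of wild-type and Nogo-A/B knockout mice. They were found on the array by symbol, with Adgre1 under its older name Emr1, and each was represented by its brightest probe by mean signal over the arrays. All 9 were present, with 15 probes in all, among 27660 named genes, and all 9 were among the 20237 genes bright enough to be tested. The lungs came from untreated male mice aged 8 weeks, 3 wild-type animals numbered 11, 12 and 13 and 3 knockout animals numbered 1, 11 and 12, and the series describes each as an individual biological replicate. The knockout lacks Nogo-A and Nogo-B, products of the reticulon gene Rtn4. The labels give neither the strain nor how the deletion was made, and it is not described as restricted to a cell type. RNA of the whole lung was labelled with Cy3 and hybridised to Agilent 60-mer arrays, 1 array a lung. In whole tissue, fewer cells of a type and less RNA per cell cannot be told apart.

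Lung macrophages live in separate places. Alveolar macrophages sit in the air spaces, where they clear surfactant, dust and microbes. They are kept by the cytokine GM-CSF, which induces the nuclear receptor Pparg, and they carry Itgax (the integrin CD11c) and the scavenger receptor Marco. Interstitial macrophages sit in the tissue around vessels and airways, depend on Csf1r, and include cells with Cd163, a receptor that takes up haemoglobin bound to haptoglobin. Scavenger receptors bind modified lipoproteins, bacteria and particles and carry them into the cell. Adgre1, the classic surface antigen, and Cd68, a lysosomal glycoprotein, mark most mouse macrophages.

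Levels below are log2 signals relative to the 75th percentile of the same array, so 0 is that percentile. They compare a gene between lungs and never one gene with another, because probes differ in brightness. The arrays held the members at 60-base probes whose positions the array files give on the mouse build mm7. The first 30 bases of 5 of these probes are printed, those of Marco and Itgax because their values differed between the days on which the arrays were scanned, and all 3 of Msr1 because this gene varied most and its probes can be set against each other. In the same order they lie on mm7 at chr1:120342087-120342147, chr7:124247096-124247155, chr8:38396605-38398766, chr8:38414609-38414668 and chr8:38394471-38394530. The brightest Msr1 probe spans 2162 genomic bases with its 60 bases, while the other Msr1 probes span 60. Which exon a probe lies in was not analysed here.
Marco probe: gagcccgagaggtcatcagtgtgtccccag
Itgax probe: tcccatctacttttgcaacgttggaattga
Msr1 probe, brightest: gtgtaggcggatcaagatcagtataactcc
Msr1 probe, next: gacactgcttgatgttcaactccatacaga
Msr1 probe, dimmest: aagtcatcttacatccaaaactacacgtat

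The stretch before the gene start is shown for 4 members, from RefSeq on GRCm38.p6 and in the direction of the gene. Marco and Itgax are shown as the members that differed between scan days, Mrc1 as a member with several motif matches, and Cd163 as the member whose values did not follow the others. A single window was matched for 5 members, these 4 and Cd68. Capitals mark matches to a core of the macrophage factor PU.1 (GAGGAA, or TTCCTC on the other strand) and to the AP-1 motif (TGAGTCA, or TGACTCA on the other strand). The stretches are chr1:120505025-120505274 on the minus strand for Marco, and on the plus strand chr7:128129300-128129525 for Itgax, chr2:14229164-14229413 for Mrc1 and chr6:124304401-124304635 for Cd163.
Marco: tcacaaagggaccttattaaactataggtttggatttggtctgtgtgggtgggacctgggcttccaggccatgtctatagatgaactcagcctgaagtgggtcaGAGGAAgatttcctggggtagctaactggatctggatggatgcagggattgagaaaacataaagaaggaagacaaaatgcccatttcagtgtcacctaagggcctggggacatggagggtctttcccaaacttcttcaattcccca
Itgax: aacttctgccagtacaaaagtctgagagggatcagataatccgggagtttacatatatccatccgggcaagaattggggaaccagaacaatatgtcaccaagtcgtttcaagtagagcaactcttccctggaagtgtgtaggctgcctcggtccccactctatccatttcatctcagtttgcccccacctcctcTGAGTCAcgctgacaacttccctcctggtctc
Mrc1: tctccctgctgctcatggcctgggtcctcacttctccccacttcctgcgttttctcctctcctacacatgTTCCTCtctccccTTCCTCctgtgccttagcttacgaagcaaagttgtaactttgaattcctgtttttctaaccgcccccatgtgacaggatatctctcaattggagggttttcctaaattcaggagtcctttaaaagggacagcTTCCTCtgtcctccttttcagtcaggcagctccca
Cd163: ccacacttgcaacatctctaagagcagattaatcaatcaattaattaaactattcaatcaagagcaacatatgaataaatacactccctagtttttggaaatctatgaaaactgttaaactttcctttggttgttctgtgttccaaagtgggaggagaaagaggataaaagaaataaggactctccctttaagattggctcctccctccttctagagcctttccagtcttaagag

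Marco held 1 match to the PU.1 core, 146 bases before its transcript start, and Mrc1 held 3, at 180, 167 and 35 bases before its transcript start. Itgax held 1 AP-1 match, 56 bases before its transcript start, and Cd163 held neither motif in the stretch shown. The transcript start of Itgax, at chr7:128129550, lies beyond the end of its printed stretch, so the match is nearer to that end. Over all 32851 RefSeq windows, 23.3% held the PU.1 core and 4.46% held the AP-1 motif within the 250 bases before the start. No matches overlap in these stretches. The Itgax and Cd163 stretches are shorter than that window, with 226 and 235 bases, because they stop before the first annotated base of the gene. These matches are letters in a window and were not tested as binding sites.

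Before the members, the deletion and the arrays themselves were checked. An Rtn4 probe for the transcript AK047982 ran from -3.03 to -2.27 in the wild type and was not well above background on any of the 3 knockout arrays. The brightest Rtn4 probe is assigned to 4 transcript variants, so it does not single out the deleted products. It ran from 1.62 to 2.36 in the wild type and was at 1.099, -0.71 and -1.79 in knockouts 1, 11 and 12. Surfactant protein C (Sftpc), which marks alveolar type 2 cells, ran from 7.83 to 8.78 over the 6 lungs, and all 8 lung epithelial markers listed were bright enough to be tested. The share of probes well above background was 68.9%, 70.3% and 77.3% in wild types 11, 12 and 13 and 78.0%, 71.8% and 71.3% in knockouts 1, 11 and 12. Arrays were scanned on 2 days. Day 1 held wild type 13 with knockouts 1 and 11, and day 2 held wild types 11 and 12 with knockout 12. Every array of day 2 had a smaller share of probes well above background than any array of day 1. Day 2 is also slide 3, so scan day and slide cannot be told apart, and neither can the day and the particular animals on it. Day 1 held slide 1, with wild type 13 and knockout 1, and slide 2, with knockout 11. Differences within day 1 therefore mix slides.

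For none of the 9 macrophage genes did the knockout lungs differ from the wild type beyond the spread between lungs. On the log2 scale the knockout mean minus the wild-type mean lay between -0.20 and 0.057 for 8 genes and was -0.96 for Msr1, and the knockout and wild-type values overlapped for all 9. With limma (moderated linear models over all genes, Benjamini-Hochberg adjustment), 0 of the 9 passed an adjusted p of 0.05, as did 0 of the 20237 genes tested (0%). At an unadjusted p under 0.05, 0 of the 9 passed, beside 191 of all genes (0.944%). Groups that did not overlap were found for 0 of the 9 and for 4% of all genes. The adjusted p was 0.9998 for every member. In the knockout 7 members had a lower mean and 2 a higher one, beside 9680 and 10557 of all genes. The median difference was -0.12 against 0.011 over all genes.

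Of the members, the class A scavenger receptors Marco and Msr1 varied most. Marco, the receptor of alveolar macrophages for bacteria and unopsonised particles, was at 3.29, 3.55 and 1.30 in wild types 11, 12 and 13, and at 2.19, 2.11 and 3.47 in knockouts 1, 11 and 12. High values were found in 3 lungs and low ones in 3, and each genotype had members of both sets, so that the lowest lung and the highest lung, 4.73-fold apart, were both wild type. The wild type averaged 2.72 ± 1.23 (SD, n = 3) and the knockout 2.59 ± 0.76 (SD, n = 3), a difference of -0.12 (SE 0.69). Its 95% interval, from -1.79 to 1.55, leaves room for a change of more than 2-fold either way. The high lungs were the 3 scanned on day 2. Blocking on scan day turned the difference to 0.45 (SE 0.23), with 0.85 inside day 1 and 0.051 inside day 2.

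Msr1, the other class A receptor among the members, takes up modified lipoprotein. It was at -1.41, -1.09 and -3.92 in wild types 11, 12 and 13 and at -3.92, -2.25 and -3.13 in knockouts 1, 11 and 12. Wild types 11 and 12 stood above all other lungs, and wild type 13 and knockout 1 were the lowest, with 7.08-fold between the extremes. The means were -2.14 ± 1.55 (SD, n = 3) and -3.10 ± 0.83 (SD, n = 3). The difference of -0.96 (SE 0.83, 95% interval -2.98 to 1.06) was the largest of any member and was smaller than the spread between lungs of the wild type. It ran from -1.85 without wild type 13 to -0.44 without wild type 12 as each array was left out. It turned with the scan day, at 0.83 within day 1 and -1.88 within day 2. On day 1, knockout 1 and wild type 13 shared a slide and were both at -3.92. Knockout 11, on another slide, was at -2.25. The other Msr1 probes gave -0.97 and -0.89, with 0.61 and 0.79 within day 1 and -1.83 and -2.06 within day 2, so that all 3 probes whose bases are printed above gave the same picture.

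Over the 6 lungs Msr1 had an SD of 1.23 and Marco one of 0.92, where the median gene had 0.31 and 0.86 was the 90th percentile of genes. Both genes were well above background on every array. Msr1 did not share the high lungs of Marco: knockout 12, high for Marco, was low for Msr1. Both lungs high for Msr1 were also high for markers of neutrophils, granulocytes that enter the lung from blood. The 18 neutrophil markers tested of 20 listed, each centred on its mean over the lungs, had medians of 1.24, 0.81 and -0.29 in wild types 11, 12 and 13 and of -1.11, 0.47 and -1.16 in knockouts 1, 11 and 12. The mean was lower in the knockout for 18 of 18 neutrophil genes, beside 9680 of all 20237 genes. Of the 18, 3 were at an unadjusted p under 0.05 in this direction (0.652% of all genes) and 0 at the adjusted one. The median difference of -1.09 was 0.19 within day 1 and -2.23 within day 2. S100a8 and S100a9, subunits of the granulocyte protein calprotectin, were at -1.57 (SE 0.87) and -0.89 (SE 0.66), and lactoferrin (Ltf) was at -0.87 (SE 0.25), each as knockout minus wild type. The 13 monocyte markers tested had medians of 0.46, 0.60 and -0.36 in wild types 11, 12 and 13. In knockouts 1, 11 and 12 they were -0.28, 0.19 and -0.39, so wild types 11 and 12 were again highest. These lungs were also highest for the 18 general macrophage markers, at 0.33 and 0.19. Whether neutrophils or monocytes have a part in the Msr1 values was not tested.

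**Figure D1:**
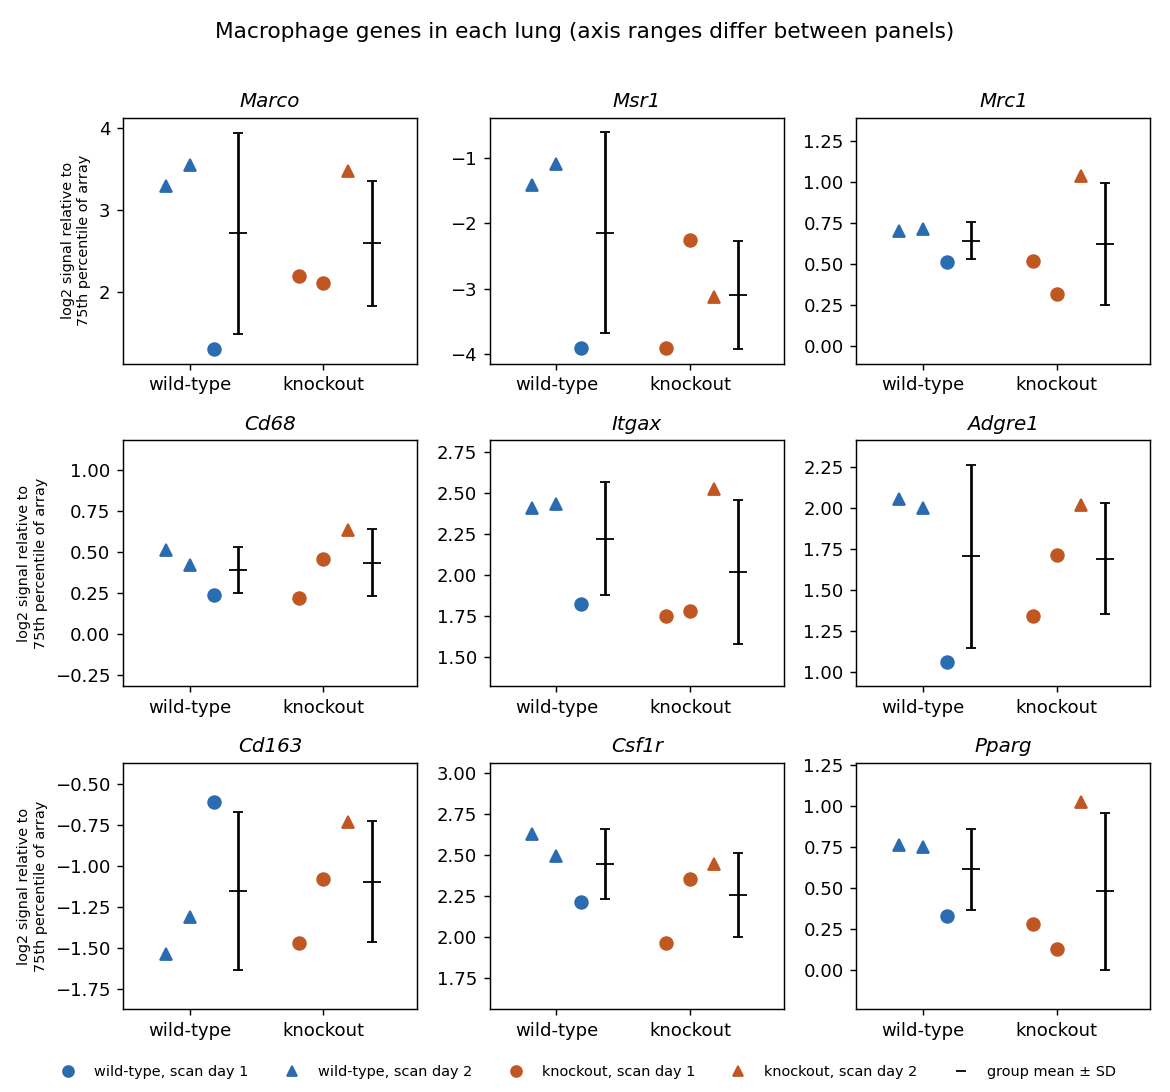
Log2 signal of the 9 macrophage genes in each lung, relative to the 75th percentile of its array. Points are lungs, circles from scan day 1 and triangles from scan day 2, and the bar beside each group is the mean ± SD of its 3 lungs; wild-type and knockout values overlap in every panel, and for Marco, Mrc1, Itgax, Adgre1, Csf1r and Pparg the triangles lie above all circles.

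The mannose receptor and the lysosomal marker were steadier. Mrc1 (CD206), which binds mannosylated glycoproteins and is also made by lymphatic endothelium, was at 0.70, 0.71 and 0.51 in wild types 11, 12 and 13 and at 0.51, 0.31 and 1.03 in knockouts 1, 11 and 12. Both its lowest and its highest lung were knockouts, and the difference was -0.020 (SE 0.23, 95% interval -0.58 to 0.54). Cd68 was at 0.51, 0.42 and 0.24 in wild types 11, 12 and 13 and at 0.22, 0.46 and 0.63 in knockouts 1, 11 and 12. These lungs lay within 1.33-fold of each other, the narrowest range of any member. The knockout minus wild-type difference of Cd68 was 0.046 (SE 0.18), and its 95% interval, from -0.40 to 0.49, was also the narrowest of the 9.

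Itgax and Pparg, which mark alveolar macrophages, followed the same lungs as Marco. Itgax, also found on dendritic cells, was at 2.41, 2.44 and 1.83 in wild types 11, 12 and 13 and at 1.75, 1.78 and 2.53 in knockouts 1, 11 and 12. Wild type 11, wild type 12 and knockout 12 lay above the other 3 lungs with a gap between them. The means of 2.22 ± 0.34 (SD, n = 3) and 2.02 ± 0.44 (SD, n = 3) differed by -0.20 (SE 0.30, 95% interval -0.92 to 0.52), and by 0.023 (SE 0.13) with scan day as a block.

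Pparg is the nuclear receptor that sets the alveolar programme and is also the master regulator of fat cells. It was at 0.77, 0.75 and 0.33 in wild types 11, 12 and 13 and at 0.29, 0.13 and 1.03 in knockouts 1, 11 and 12. The same 3 lungs were high, and knockout 12 was the highest. The means were 0.62 ± 0.25 (SD, n = 3) and 0.48 ± 0.48 (SD, n = 3), with a difference of -0.14 (SE 0.29, 95% interval -0.84 to 0.56). Its probe is printed at 10 spots on each array, 1 of which was left out on the array of knockout 11, and the SD between spots of an array was 0.025 to 0.051.

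Adgre1, Csf1r and Cd163 are the members listed as interstitial, though Adgre1 and Csf1r are not confined to these cells. Adgre1 was at 2.05, 2.001 and 1.06 in wild types 11, 12 and 13 and at 1.34, 1.72 and 2.02 in knockouts 1, 11 and 12. Its difference was -0.014 (SE 0.33, 95% interval -0.83 to 0.80), with the lungs of day 2 again above those of day 1. Csf1r, the receptor for M-CSF and the Il34 product that most macrophages need to survive, was at 2.63, 2.498 and 2.21 in the same wild types and at 1.97, 2.35 and 2.45 in the same knockouts. Its difference was -0.19 (SE 0.21, 95% interval -0.70 to 0.32), and it was lower in the knockout under all 22 alternatives tried, from -0.54 to -0.047, without passing the threshold under any of those with a test. The further probes of Csf1r differed by -0.47 and -0.57 within day 1 and by 0.10 and 0.12 within day 2.

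Cd163 was the member that went against the rest. It was at -1.53, -1.31 and -0.61 in wild types 11, 12 and 13 and at -1.47, -1.08 and -0.73 in knockouts 1, 11 and 12, so wild type 13, among the 3 lowest lungs for each of the other 8 members, was the highest here. The means of -1.15 ± 0.48 (SD, n = 3) and -1.09 ± 0.37 (SD, n = 3) differed by 0.057 (SE 0.32, 95% interval -0.71 to 0.83). Within day 1 the difference was -0.67 and within day 2 it was 0.69. The further probes of Itgax, Adgre1 and Csf1r gave differences of -0.16, -0.40, -0.26 and -0.54, of the same sign as the brightest probe of their gene.

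Several genotype differences changed sign with scan day in the model. Scan day cannot be told apart from slide 3 or from the animals on each day. With it as a block, 2 of the 9 members had a lower mean in the knockout in place of 7, and 0 passed an adjusted p of 0.05, as did 0% of all genes, or an unadjusted p under 0.05, which 2.1% of all genes did. For 6 of the 9 the difference had opposite signs within day 1 and day 2. Each difference within a day sets a single array against 2. The shares of all genes with a changed sign under the block, or with opposite signs within the days, were not counted. In a model with an interaction of genotype and day, Marco (-0.80, limma adjusted p = 0.418) and Cd163 (1.36, limma adjusted p = 0.385) were at an unadjusted p under 0.05, a level that 11.6% of all genes reached. The adjusted threshold was passed by 0 of the 9 members and 0 of all genes.

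**Figure D2:**
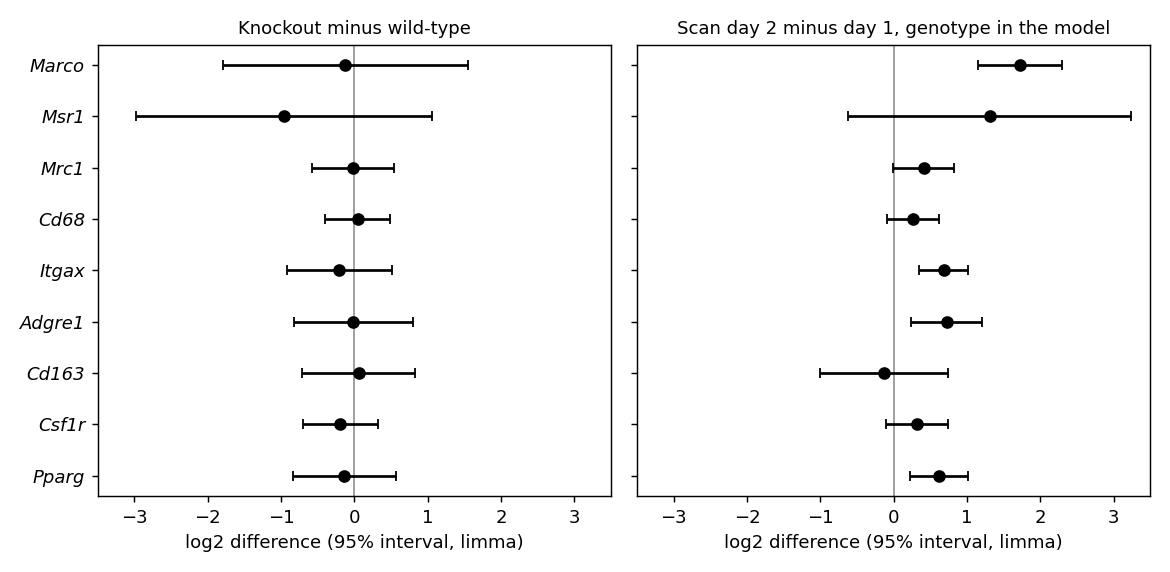
Log2 differences of the 9 macrophage genes with 95% intervals from limma, knockout minus wild type on the left and scan day 2 minus day 1, with genotype in the model, on the right. All 9 intervals on the left include 0, while those of Marco, Itgax, Adgre1 and Pparg on the right lie above it.

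Between the scan days 2 of the members differed, in a model that also holds genotype. Marco was higher on day 2 by 1.72 (SE 0.23, 95% interval 1.15 to 2.29, limma adjusted p = 0.0120), with plain means of 1.87 on day 1 and 3.44 on day 2, and Itgax by 0.68 (SE 0.13, 95% interval 0.35 to 1.01, limma adjusted p = 0.0347), with plain means of 1.79 and 2.46. These 2 of the 9 passed the adjusted threshold in this direction, which 2.26% of all genes did, while 0 passed in the other direction, which 8.74% did. Together 2225 genes were called, 11% of those tested. Adgre1 (0.73, adjusted p = 0.0775), Pparg (0.62, adjusted p = 0.0687), Mrc1 (0.41, adjusted p = 0.189), Csf1r (0.32, adjusted p = 0.287) and Cd68 (0.26, adjusted p = 0.305) had positive differences that did not pass in limma. Msr1 (1.31, SE 0.76) and Cd163 (-0.14, SE 0.34) had the widest errors.

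By the brightest probes of Marco, Mrc1, Itgax, Adgre1, Csf1r and Pparg every lung of day 2 lay above every lung of day 1. That is 6 of 9 members, where 20% of all genes had this order, and 0 of 9 had the opposite order, which 19.5% of all genes had. The next brightest Csf1r probe did not keep it, with wild type 13 at 0.997 and wild types 11 and 12 at 0.985 and 0.884. The dimmest Csf1r probe and the further probes of Itgax and Adgre1 did. The median day difference was 0.62 over the members and 0.044 over all genes. The calls rest on few arrays. Marco was no longer called without wild type 11 (adjusted p = 0.0524) or wild type 13 (adjusted p = 0.0616), and Itgax without wild type 11 (0.149), wild type 12 (0.158), wild type 13 (0.101), knockout 1 (0.0798) or knockout 12 (0.113), while both stayed positive with every array left out. Adgre1 was called without knockout 11 (adjusted p = 0.0387). The calls over all genes numbered 973, 1051, 623, 1419 and 1015 without wild types 11, 12 and 13 and knockouts 1 and 12.

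How arrays are scaled moved this count and its balance. The calls were 457 higher and 1768 lower on day 2 in the main values, 1206 and 1638 after quantile normalization, 2174 and 1484 after median scaling, where the median day difference of all genes was 0.34 in place of 0.044, and 1314 and 1713 in the authors' values. With normexp background correction and quantile normalization they were 1287 and 1686, and without genotype in the model 1071 and 2293. Marco and Itgax were called and higher on day 2 under each of these 5 alternatives. Adgre1 and Pparg were also called in the authors' values (adjusted p = 0.0456 and 0.0420), with normexp (0.0386 and 0.0429) and under median scaling (0.0427 and 0.0186), where Mrc1 joined them (0.0350), and Pparg was called without genotype in the model (0.0311).

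Other genes of alveolar macrophages were, in their median, higher in the same lungs, with some going the other way. Of 24 alveolar markers 23 were tested, and 20 of these are not among the 9 members. Centred on each gene's mean, the medians of these 20 were 0.27, 0.14 and -0.19 in wild types 11, 12 and 13 and -0.22, -0.24 and 0.38 in knockouts 1, 11 and 12. Of these 20, 5 were called higher on day 2 and 0 lower, beside 2.26% and 8.74% of all genes. The 5 were 9 with median scaling, where 2174 of all 20237 genes were called higher. They were 7 with normexp (1287 of all genes) and in the authors' values (1314). After quantile normalization (1206) or without genotype in the model (1071) they were 6, with 0 lower under each setting. With an array left out the 5 became 2 without wild type 11 (38 of all genes), 1 without wild type 12 (58) and 0 without wild type 13 (44). They became 5 without knockout 1 (175), 7 without knockout 11 (527), with 1 lower, and 1 without knockout 12 (123). Days did not overlap for 9 of the 20 in the higher direction (20% of all genes) and for 3 in the lower direction (19.5% of all genes), namely Fabp5 (-0.46), Car4 (-0.31) and Bhlhe41 (-0.69), and Fabp4 was at -1.15 with overlap. The median day difference of the 20 was 0.58, against 0.044 over all genes, and it stayed positive with each array left out, from 0.36 to 0.70. Other lists also had positive medians: scavenger receptors (0.41), neutrophils (0.39), general macrophage markers (0.34), colony stimulating factor and Pparg genes (0.32) and monocytes (0.31). Lung epithelium (0.19) and dendritic cells (0.17) followed. Adipocyte (-1.15), B and T cell (-0.11) and endothelial markers (-0.036) had negative ones. The rise was thus not confined to the alveolar list. The 5 genes were named after their values were seen: Ear1 (1.16, limma adjusted p = 0.00784), a ribonuclease of the eosinophil-associated family, Krt79 (1.16, adjusted p = 0.0165), a keratin, Atp6v0d2 (0.97, adjusted p = 0.0142), a subunit of the lysosomal proton pump, the cytokine Il18 (0.88, adjusted p = 0.0160) and the sialic acid receptor Siglecf (0.81, adjusted p = 0.0300).

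Between genotypes the alveolar list showed no called gene. Of the 23, 12 had a lower and 11 a higher mean in the knockout, 0 at an unadjusted p under 0.05, with a median difference of -0.039. The smallest p values belonged to the lipid droplet protein Cidec (-0.74, SE 0.32), the keratin Krt19 (-0.46, SE 0.31) and the fatty acid carrier Fabp4 (-0.69, SE 0.63). Cidec, Fabp4 and Pparg also stand on the list of adipocyte markers. All 11 adipocyte markers tested of 13 listed had a lower mean in the knockout, beside 9680 of all 20237 genes. Again 3 were at an unadjusted p under 0.05 in this direction (0.652% of all genes) and 0 at the adjusted one, with a median of -0.69. The hormone adiponectin (Adipoq) differed by -2.72 (SE 0.96) and adipsin (Cfd) by -2.77 (SE 0.998). The list medians per lung were 0.63, -0.56 and 1.42 in wild types 11, 12 and 13 and -0.41, -0.25 and -0.80 in knockouts 1, 11 and 12. Fabp4 was at 2.48, 0.83 and 3.27 in the wild types and at 1.87, 1.60 and 1.046 in the knockouts, highest in wild type 13 like the adipocyte list and unlike Marco or Itgax. Its share of signal from fat was not tested.

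The interstitial markers went both ways between the scan days. On the full list of 22, 4 were higher on day 2 without overlap (Adgre1, Csf1r, C1qa and Trem2), beside 20% of all genes. Lower without overlap were 4 (C1qc, Cx3cr1, Folr2 and Clec10a), beside 19.5% of all genes, so both counts were near those shares. The genes besides the members were named after their values were seen. All 22 listed were tested, and the 19 that are not members had medians of -0.056, -0.18 and 0.0047 in wild types 11, 12 and 13 and of -0.042, 0.14 and -0.00027 in knockouts 1, 11 and 12. Their median day difference was 0.040. Of the 19, 0 were called higher on day 2 (2.26% of all genes) and 1 lower (8.74% of all genes). This 1 was the fractalkine receptor Cx3cr1 (-2.43, SE 0.49, limma adjusted p = 0.0403), also found on monocytes. That lower count was 2 with normexp and in the authors' values, beside 1686 and 1713 of all 20237 genes. It was 0 after quantile normalization and without wild type 11, wild type 13, knockout 1, knockout 11 or knockout 12. Without knockout 12, 1 of the 19 was called higher, beside 123 of all genes. Between genotypes 8 of the 22 had a lower and 14 a higher mean in the knockout, with a median of 0.046. Of them 1 was at an unadjusted p under 0.05, beside 0.944% of all genes. This was platelet factor 4 (Pf4), a chemokine also made by platelets, at -0.86 (SE 0.22, limma adjusted p = 0.9998). It was lower within day 1 (-0.56) and within day 2 (-1.22). Next were Gas6 (0.34, SE 0.15), a ligand of receptors that clear dying cells, and the complement subunit C1qc (0.44, SE 0.24).

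The median of the alveolar markers minus that of the interstitial markers, taken over the genes that are not members, was 0.33, 0.32 and -0.20 in wild types 11, 12 and 13 and -0.17, -0.39 and 0.38 in knockouts 1, 11 and 12. The 3 lungs of day 2 were positive and the 3 of day 1 negative. The wild type averaged 0.15 ± 0.30 (SD, n = 3) and the knockout -0.061 ± 0.39 (SD, n = 3), so the difference of -0.21 was within the spread of either group. Inside day 1 it was -0.13 and inside day 2 it was 0.0027. It was -0.026 without knockout 11, -0.11 without knockout 1, -0.42 without knockout 12, -0.12 after quantile normalization and with normexp, and -0.13 in the authors' values. Over the members alone, Marco, Itgax and Pparg against Adgre1, Cd163 and Csf1r, the same measure was 0.0085, 0.17 and -0.16 in wild types 11, 12 and 13 and -0.016, -0.43 and 0.16 in knockouts 1, 11 and 12, with a difference of -0.10 between genotypes. That difference was 0.030 within day 1, 0.13 within day 2, 0.041 with the mean over probes, 0.055 without knockout 11 and -0.27 without knockout 12, so its sign was not settled. Adgre1 and Csf1r are not confined to interstitial macrophages, so the members alone do not set these cells cleanly apart from alveolar ones. The genes that are not members do not do so either, as some also mark other cells of the whole lung. Fabp4 and Cidec also stand on the adipocyte list, Chil3 on the monocyte list and Lyve1 on the endothelial list.

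**Figure D3:**
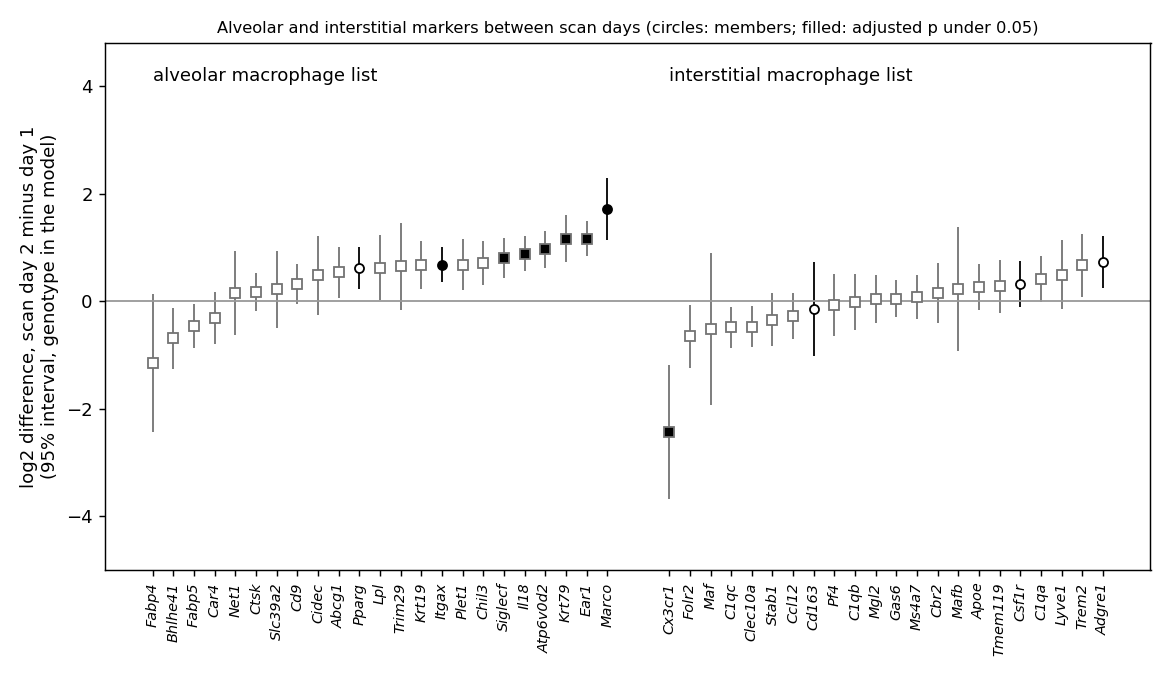
Log2 difference of each alveolar and interstitial macrophage marker between scan days, day 2 minus day 1 with genotype in the model, with 95% intervals from limma and genes ordered by value. Circles are members, squares other list genes, and filled symbols passed an adjusted p of 0.05; 7 alveolar markers passed above 0 and none below, and of the interstitial markers Cx3cr1 passed below 0.

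**Figure D4:**
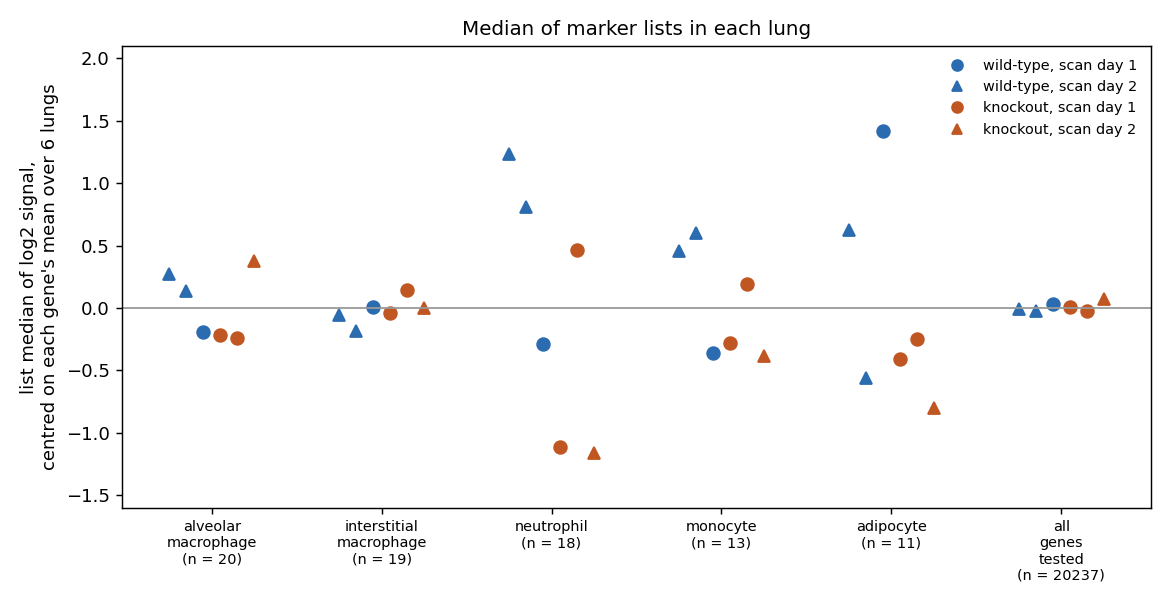
Median over each marker list in each lung, as log2 signal centred on each gene's mean over the 6 lungs, with the alveolar and interstitial lists shown without the 9 members. The alveolar medians are above 0 in the 3 lungs of scan day 2 and below 0 in the others. The neutrophil and monocyte medians are highest in wild types 11 and 12, and the adipocyte medians in wild types 13 and 11. The medians of all genes stay near 0.

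The signals that keep these macrophages were read from a list of 27 genes of the colony stimulating factor and Pparg pathways, all tested. Of these, 15 had a lower and 12 a higher mean in the knockout, 0 at an unadjusted p under 0.05, with a median of -0.022. The smallest p values were those of Tgfb1 (-0.48, SE 0.21), a cytokine that alveolar macrophages need, Csf3r (-1.64, SE 0.90), the G-CSF receptor of neutrophils, and Csf2 (0.22, SE 0.15), which encodes GM-CSF. Csf1 and Il34, the ligands of Csf1r, named here for that role, differed by -0.48 (SE 0.44) and 0.30 (SE 0.23). On this list 0 of the 27 were called between scan days, beside 11% of all genes. Days did not overlap for 11 of the 27 in the higher direction on day 2 (20% of all genes) and for 3 in the lower direction (19.5%).

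The scavenger and pattern receptors gave similar counts. Of 27 on that list, Marco, Msr1, Mrc1, Cd68 and Cd163 included, 15 had a lower and 12 a higher mean in the knockout, 0 at an unadjusted p under 0.05, with a median of -0.11. The smallest p values were those of the collectin Colec12 (-0.33, SE 0.20), the engulfment receptor Megf10 (0.45, SE 0.31) and the endotoxin receptor Tlr4 (-0.36, SE 0.25). Cd5l, a protein secreted by macrophages and named after its value was seen, was the only one besides Marco called between scan days. It was higher on day 2 by 2.68 (limma adjusted p = 0.00516), a direction in which 2.26% of all genes were called. Days did not overlap for 9 of the 27 in the higher direction (20% of all genes) and for 3 in the lower direction (19.5%). Among 18 general macrophage markers 11 had a lower and 7 a higher mean in the knockout, 0 at an unadjusted p under 0.05, with a median of -0.091. Lgals3 (-0.50, SE 0.21), Cd84 (-0.73, SE 0.34) and the lysozyme gene Lyz2 (0.43, SE 0.22) had the smallest p values there. Between scan days 5 of these 18 were higher on day 2 without overlap and 1 lower, beside the same shares of all genes.

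The tested genes whose pattern over the 6 lungs lay closest to each member were found by the root mean square difference of centred log2 values. For Marco these were Slc24a5 (0.18) and Ear10 (0.21), and for Msr1 Emilin2 (0.27) and LOC381484 (0.30). Ear10 was at 2.33, 2.39 and 0.78 in wild types 11, 12 and 13 and at 1.57, 1.32 and 2.69 in knockouts 1, 11 and 12, high in the lungs where Marco was high. Emilin2 was at 3.29, 3.23 and 1.16 in the wild types and 0.89, 2.68 and 1.27 in the knockouts, with wild types 11 and 12 highest as for Msr1. The nearest genes were Rfx5 and Fam172a for Mrc1, Alg1 and Poc1a for Cd68, Nedd1 and Galnt4 for Itgax, and Nop16 and Mlst8 for Adgre1. They were Nme5 and Cfap157 for Cd163, Arhgap28 and Prkx for Csf1r, and Cog6 and Lpar1 for Pparg, and these 14 genes lay within 0.022 to 0.052 of their member. These genes were picked from all 20237 tested for this likeness, so being high in the same lungs was set by the choice. Each likeness rests on 6 lungs and is a description.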

How the data were processed

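Lung RNA of 3 wild-type and 3 Nogo-A/B knockout mice was hybridised in 1 colour to Agilent arrays. The members and gene lists were chosen with earlier results of these data known. The spot intensity in the deposited scanner files is the processed signal of Agilent Feature Extraction, background-subtracted and detrended per the file headers. The headers name its version 9.5.1.1 and the submitters' processing notes 9.1. The authors' series table holds log2 values with medians from 8.087 to 8.090. How that table was made is not given in the sources used for this work, and its log base was read from its values.

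Outlier spots were removed, replicate spots of a probe averaged, and 30 of 41174 probes without a usable spot on every array were dropped. Each array was scaled by its own 75th percentile of processed signal, and log2 was taken. Genes were named through the array's accessions and a RefSeq table (GRCm38.p6), which named 32691 of 41144 probes, and 8453 kept the array's name. A gene was represented by its brightest probe, kept where well above background on at least 3 of 6 arrays, which left 20237 genes. Of the list genes, Ear2, Ly6c2, Ly6g, Stfa1, Ccl21a, Ccl22, Lep and Ucp1 were not tested.

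Genotypes were compared by limma (version 3.58.1, R 4.3.3) without covariates, with two-sided moderated tests and Benjamini-Hochberg adjustment over the 20237 genes, and the code was tested on simulated data. The comparison of scan days, its interaction with genotype and its alternatives were added after the data were seen. Inside a scan day, a genotype with 1 array is taken to vary as the other does. Genes named were the 9 members, up to 3 genes of each list with the smallest p and the first 3 markers of cell type lists, and the 2 genes of most similar pattern for each member. Alternatives were quantile normalization, median scaling, normexp correction with an offset of 50, the authors' values, other filters and probe rules, scan day, slide and replicate number as blocks, a trended and robust variance, and leaving out each array. The array number limits the precision of every value. Replicate numbers 11 and 12 occur in both genotypes and share only the number. Figures were drawn with matplotlib 3.10.9.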

Additional observations from a re-analysis of the deposited data

How the results depend on the processing

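With limma, 0 of the 9 members passed an adjusted p of 0.05 between genotypes under every alternative tried, and the members' lowest adjusted p under any of them was 0.169, for Msr1. Over all genes the count of 0 became 2 with median scaling and with slide as a random block, 1 with normexp, with the authors' values and with the trended, robust variance, and 0 to 1 with an array left out (1 without knockout 1). The cause was not tested. The signs of several differences turned. With scan day as a block Marco was at 0.45, Mrc1 at 0.12, Itgax at 0.023, Adgre1 at 0.23 and Pparg at 0.072. Within day 1 Marco was at 0.85, Msr1 at 0.83, Adgre1 at 0.47 and Cd163 at -0.67, and within day 2 Marco was at 0.051, Mrc1 at 0.33, Itgax at 0.11 and Pparg at 0.27. With slide as a random block Marco was at 0.26, Mrc1 at 0.12, Adgre1 at 0.090 and Pparg at 0.049, and Cd163 was at -0.015 after quantile normalization. Leaving out each array gave ranges of -0.83 to 0.29 for Marco, -0.23 to 0.13 for Mrc1, -0.33 to 0.16 for Adgre1, -0.13 to 0.33 for Cd163, -0.052 to 0.15 for Cd68, -0.41 to 0.038 for Pparg, -1.85 to -0.44 for Msr1, -0.46 to -0.069 for Itgax and -0.31 to -0.047 for Csf1r. Between scan days, 3364 genes were called without genotype in the model and 3658 with median scaling, and 623 to 2463 with an array left out. Of the members, 5 were called with median scaling, 4 with normexp (2973 of all genes) and 4 in the authors' values (3027), and 0 to 3 with an array left out. The day difference of Cd163 was 0.16 with median scaling and -0.82 to 0.54 with an array left out, and that of Msr1 was -0.049 to 2.66. With the replicate number as a block 0 genes were called (631 at an unadjusted p under 0.05), and Msr1 differed by -1.44 (limma adjusted p = 0.978). The correlation between genotypes of the differences between numbers 11 and 12 was -0.18, and with crossed numbers, added after seeing the data, 0 genes were called and 966 had an unadjusted p under 0.05. With 3 lungs a genotype, on 2 scan days that split each genotype unevenly, little can be resolved, and for Marco and Msr1 the intervals include changes of over 2-fold.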

Other observations

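Other cells of the lung were read from marker lists on the same arrays, with no list gene passing the adjusted threshold in limma between genotypes. Of 13 monocyte markers tested, 11 had a lower mean in the knockout, 0 at an unadjusted p under 0.05, with a median of -0.43 that was 0.44 within day 1 and -0.89 within day 2. Among them the coagulation factor F13a1 differed by -1.39 (SE 0.63) and the chemokine receptor Ccr2 by -0.89 (SE 0.44). Of 15 dendritic cell markers, Itgax included, 12 had a higher mean in the knockout, 0 at an unadjusted p under 0.05, with a median of 0.21. The chemokine receptor Ccr7 was at 0.59 (SE 0.26) and Bst2 at 0.32 (SE 0.21). Of 10 B and T cell markers 8 had a higher mean, with a median of 0.30, and Cd3d, a subunit of the T cell receptor complex, was at 0.49 (SE 0.19, limma adjusted p = 0.9998). Endothelial markers, which include Mrc1, had a median of 0.13 over 11 genes and lung epithelial markers one of 0.13 over 8.

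Laptm5, a lysosomal membrane protein of blood cells on the general macrophage list, was lower on scan day 2, with a difference of -1.50 (limma adjusted p = 0.0176), while Marco, Itgax and Cd5l were higher on that day. It was named after its value was seen.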
